A study of Arabidopsis with 12 samples.

Results

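The SAUR (small auxin up RNA) genes of Arabidopsis were described in seedlings of the wild type and the *aph-1* mutant, with and without abscisic acid (ABA). A gene was taken when its deposited description held SAUR or the words small auxin up, and 77 of the 33559 genes in the table met this rule. The study sequenced RNA from whole seedlings 14 days old, grown on 1/2 MS medium with sucrose. Its 4 groups were the Col-0 wild type (WT) without treatment, *aph-1* without treatment, WT after ABA and *aph-1* after ABA, with 3 libraries in each and 12 in all. ABA was given at 50 micromolar for 6 h. The *aph-1* line is a single T-DNA insertion line in the Col-0 background with the insertion in the promoter of APH, which encodes a low molecular weight protein tyrosine phosphatase, and it makes a fused T-DNA and APH transcript.

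The table held 1 value per gene and group, in FPKM (fragments per kilobase of gene, scaled to the depth of the library), which was taken as the authors' value for the 3 libraries together. No value per library was used, so no comparison below has a replicate check, an error or a p-value. Differences are given as log2 ratios with 0.1 FPKM added to both values, a scale that understates the change of low genes. A gene was counted as higher or lower when it differed at least 2-fold on this scale and had at least 1 FPKM in at least 1 of the 2 groups compared. The 4 comparisons share groups, since untreated WT, for example, stands in both the WT response to ABA and the comparison of untreated genotypes. The 3 libraries of a group carry only a replicate number in the labels. In RNA from whole seedlings, fewer cells that express a gene and less RNA per cell cannot be told apart.

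SAUR genes are early targets of auxin and encode small proteins of the growing shoot, root and flower. SAUR proteins of the SAUR19 type bind and inhibit clade D protein phosphatases of the PP2C class. These phosphatases otherwise keep the plasma membrane H+-ATPases inactive, and active pumps acidify the cell wall and allow the cell to expand. ABA is the hormone of water deficit and restrains seedling growth, and a smaller set of SAUR genes has been tied to stress, senescence and ABA responses instead.

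The values behind the members varied in depth and in certainty. From the smallest values in the table, 1 FPKM at the median member length of 812 bases stood for at most about 49.4, 48.0, 40.9 and 42.2 fragments in untreated WT, untreated *aph-1*, ABA-treated WT and ABA-treated *aph-1*, summed over libraries. ABA-responsive marker genes separated the treated groups, with RAB18, a dehydrin gene, from 56.6 to 7335 FPKM in WT and from 5.67 to 5766 FPKM in *aph-1*. APH itself was at 95.9, 83.6, 99.0 and 86.9 FPKM in the same order of groups, and since the mutant makes a fused transcript this level does not check the genotype. All 3 shoot markers and all 4 root markers of the marker lists were present in every group of these whole seedlings. With ABA the shoot marker RBCS1A went from 9613 to 3952 FPKM in WT and from 12404 to 6025 FPKM in *aph-1*, while the other 2 shoot markers and the 4 root markers stayed under 2-fold, and the part of tissue shares in the SAUR values was not tested. Of the 77 members, 11 overlap another annotated gene, 10 of them a protein-coding one. These 10 are SAUR6, SAUR7, SAUR8, SAUR13, SAUR31, SAUR44, SAUR47, SAUR60, SAUR63 and SAUR64, and SAUR6 and SAUR7 overlap each other. The library kit keeps strand, but no source used here says whether counting did. SAUR19 to SAUR24, SAUR26 to SAUR29 and SAUR61 to SAUR68 are close relatives in neighbouring loci, and reads that fit several of them could be split in an unknown way, so their single values are less certain than their sums.

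Of the 77 members, 60 reached 1 FPKM in at least 1 of the 4 groups, which is 77.9% beside 60.4% of all genes, and 28 reached 10 FPKM. In untreated WT alone 59 reached 1 FPKM and 25 reached 10 FPKM. The median of the 60 there was 7.33 FPKM, beside 12.9 FPKM over all genes with at least 1 FPKM in some group. SAUR11, SAUR17, SAUR18, SAUR43, SAUR47 and SAUR73 were listed at 0 in all 4 groups. Another 11 members, SAUR2, SAUR10, SAUR25, SAUR34, SAUR39, SAUR40, SAUR46, SAUR48, SAUR61, SAUR68 and SAUR75, stayed under 1 FPKM in every group. SAUR62 and SAUR75 are both known for pollen tube growth, and in these seedlings SAUR62 was expressed while SAUR75 did not pass 0.306 FPKM in any group.

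The highest member in untreated WT was SAUR78 (AT1G72430), whose product binds ethylene receptors and promotes growth. It went from 123 to 55.2 FPKM with ABA in WT and from 103 to 43.7 FPKM in *aph-1*. SAUR6 (AT2G21210) followed with 91.8 and 103 FPKM in the untreated genotypes and 27.7 and 25.9 FPKM after ABA. SAUR14 (AT4G38840) and SAUR50 (AT4G34760), both induced by light in cotyledons, and SAUR32 (AT2G46690), which abolishes the apical hook when overexpressed, came next with 82.6, 60.5 and 56.6 FPKM in untreated WT. With SAUR16 (AT4G38860) at 41.5 FPKM, these 6 genes held 46.9% of the summed FPKM of the family there.

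After ABA the summed FPKM of the family was lower and its leading genes were others. The sum over all 77 members was 973 FPKM in untreated WT, 864 FPKM in untreated *aph-1*, 540 FPKM in ABA-treated WT and 475 FPKM in ABA-treated *aph-1*. As a share of all FPKM in the group this was 0.0890%, 0.0840%, 0.0482% and 0.0426%. The number of members with at least 1 FPKM went from 59 in untreated WT to 37 after ABA, and in *aph-1* from 58 to 36. In WT 23 members reached 1 FPKM only without ABA, 1 only with it and 36 in both, beside 909, 506 and 18679 of all genes. In *aph-1* these were 22, 0 and 36 members, beside 848, 562 and 18644 of all genes. SAUR59 (AT3G60690) became the highest member, with 22.1% of the family sum in ABA-treated WT and 20.1% in ABA-treated *aph-1*. SAUR78, SAUR32, SAUR36 and SAUR72 followed it in WT, while SAUR14, SAUR16 and SAUR50 left the 8 highest.

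Most expressed members were lower after ABA in WT. Among the 60 members with enough FPKM, 43 were lower after ABA and 6 were higher, while 11 differed less than 2-fold. Over all 20094 genes that met the same minimum, 13% were lower and 11.7% were higher. The median log2 ratio of the 60 members was -2.33, a 5.04-fold lower level, beside -0.00 over all genes. The filter itself favours falls among genes that pass only through the untreated group: 23 of the 60 members reached 1 FPKM only in untreated WT, and all of these were counted as lower. Among the 36 members with at least 1 FPKM in both groups, 20 were lower and 5 higher with a median of -1.24, beside 10.3% lower and 10.6% higher of 18679 genes in that class. Without any filter, 58 of the 77 members had the lower value after ABA, 12 the higher and 7 equal values, which is 75.3%, 15.6% and 9.09% beside 38.7%, 36.4% and 24.9% of all 33559 genes. The members nearest the 2-fold limit were SAUR78 and SAUR70 just inside it at -1.16 and -1.12, and SAUR49 and SAUR51 just outside it at -0.93 and -0.89.

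**Figure D1:**
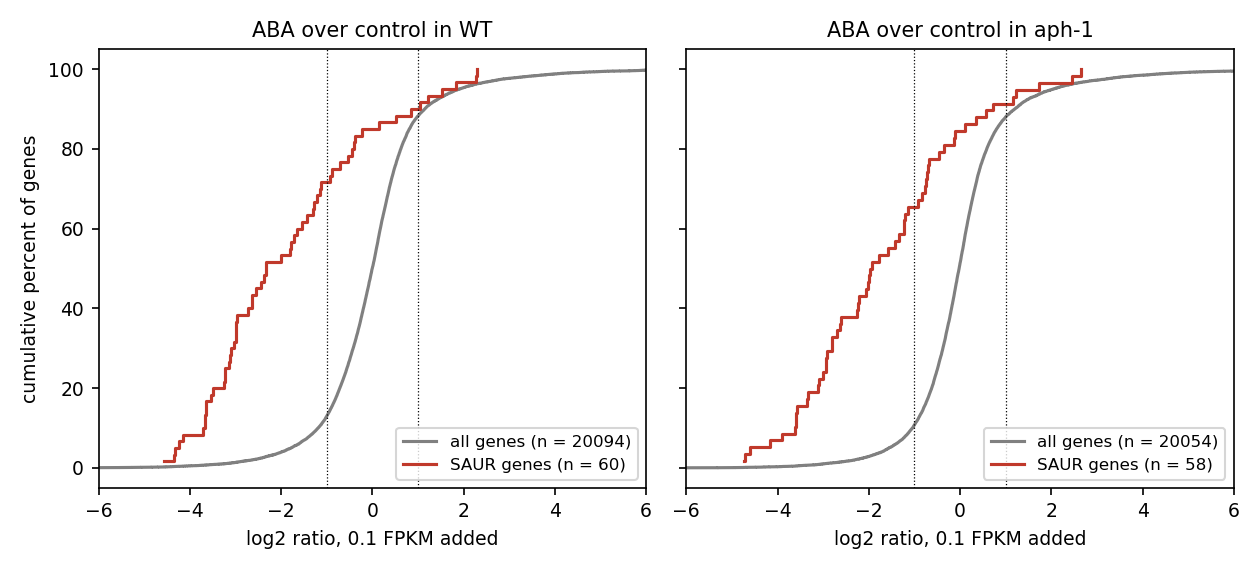
Cumulative percent of genes (vertical axis) against the log2 ratio of ABA to control with 0.1 FPKM added (horizontal axis), in WT (left) and *aph-1* (right), for SAUR genes (red) and all genes (grey) with at least 1 FPKM in at least 1 of the 2 groups, with dotted lines at 2-fold. The red line lies left of the grey one over most of its course, with medians of -2.33 in WT and -1.96 in *aph-1* against -0.00 and -0.02 over all genes.

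The 8 members with the largest fall in WT came from 4 of the tandem arrays and from 2 loci outside them. With 1 FPKM added in place of 0.1, only 4 of them (SAUR62, SAUR16, SAUR3 and SAUR63) stayed among the 8 largest, and SAUR14, SAUR76, SAUR1 and SAUR64 took the place of SAUR13, SAUR44, SAUR26 and SAUR65. SAUR62 (AT1G29430), of the SAUR61 to SAUR65 array on chromosome 1, went with ABA from 19.3 to 0.716 FPKM in WT and from 17.0 to 0.539 FPKM in *aph-1*. Its log2 ratio in WT was -4.57, a 23.8-fold lower level, and -4.74 in *aph-1*. In the same array SAUR63 (AT1G29440), which promotes the elongation of hypocotyls and stamen filaments, was at 14.8 and 12.04 FPKM in control seedlings against 1.07 and 0.573 FPKM under ABA. SAUR65 (AT1G29460) had 6.80 and 5.30 FPKM in control seedlings against 0.425 and 0.778 FPKM under ABA. Since these genes were picked for their fall in WT, their lower WT values with ABA are set by that choice. Both ABA-treated values lay below both untreated values in each. The log2 ratios in WT were -3.66 for SAUR63 and -3.72 for SAUR65.

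SAUR13 (AT4G38825), which overlaps a neighbouring protein-coding gene, went from 5.45 to 0.172 FPKM in WT and from 8.77 to 0.649 FPKM in *aph-1*. SAUR3 (AT4G34790), also on chromosome 4, was at 10.02 and 8.62 FPKM in control seedlings against 0.404 and 0.231 FPKM under ABA. Both lay more than 10-fold below their untreated level in each genotype, with log2 ratios in WT of -4.35 for SAUR13 and -4.33 for SAUR3. The treated WT value of SAUR13 rests on an estimated 4 fragments, so its ratio is loose. SAUR44 (AT5G03310), again overlapping a protein-coding gene, went from 2.94 to 0.0604 FPKM in WT and from 1.92 to 0.163 FPKM in *aph-1*. These ABA values rest on an estimated 1 and 4 fragments, so the log2 ratios of -4.24 and -2.94 are loose. SAUR26 (AT3G03850), whose natural variants differ in growth responses to warmth, was at 7.86 and 6.09 FPKM in control seedlings against 0.350 and 0.677 FPKM under ABA. SAUR16 was the most abundant of the 8, at 41.5 and 32.6 FPKM in control seedlings against 3.17 and 3.11 FPKM under ABA, a log2 ratio in WT of -3.67.

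The SAUR19 to SAUR24 genes of chromosome 5, whose proteins are the best known inhibitors of the clade D phosphatases, were all lower after ABA. Their summed level went from 37.5 to 4.91 FPKM in WT and from 34.4 to 4.06 FPKM in *aph-1*. All 6 were past 2-fold in both genotypes, and their log2 ratios in WT lay between -3.23 for SAUR20 and -2.33 for SAUR24. Without ABA each of the 6 was between 3.22 and 8.60 FPKM in WT, and with ABA between 0.401 and 1.18 FPKM. All but SAUR24 in WT, and all but SAUR21 and SAUR24 in *aph-1*, reached 1 FPKM only without ABA. The filter favours falls among such genes: of all genes in that class 75.6% were lower in WT and 68% in *aph-1*.

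Of the 9 genes SAUR61 to SAUR68 and SAUR75, whose SAUR63 type drives elongation of shoot organs, 6 had enough FPKM and 5 were lower. Of these, SAUR62, SAUR64 and SAUR65 reached 1 FPKM in WT only without ABA, a class in which 75.6% of all genes were lower. Over all genes with enough FPKM in WT 13% were lower. The 9 genes summed to 74.7 and 64.4 FPKM in control WT and *aph-1* against 12.5 and 10.6 FPKM under ABA. The exception was SAUR66 (AT1G29500), at 11.3 and 10.4 FPKM in control seedlings against 7.75 and 5.74 FPKM under ABA, a log2 ratio in WT of -0.53. Its array neighbour SAUR67 (AT1G29510) was at 10.8 and 8.83 FPKM in control seedlings against 1.64 and 1.83 FPKM under ABA. The pair thus had near equal levels in control WT but 7.75 against 1.64 FPKM in ABA-treated WT, although SAUR66 and SAUR67 are close relatives whose reads may be hard to separate.

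SAUR26, SAUR27 and SAUR28 of chromosome 3, a group linked to growth at warm temperature, summed to 14.5 and 11.5 FPKM in control seedlings against 1.14 and 1.54 FPKM under ABA. All 3 were lower in both genotypes, but each reached 1 FPKM only without ABA, where the filter favours falls. Of all genes in that class 75.6% were lower in WT and 68% in *aph-1*. After ABA SAUR28 rests on an estimated 7 fragments in WT and 3 in *aph-1*. The light-induced SAUR14 to SAUR16 cluster of chromosome 4, which includes SAUR15 (AT4G38850), the SAUR-AC1 gene of root growth, was the most abundant of these arrays. It summed to 135 and 108 FPKM in control seedlings against 13.0 and 11.1 FPKM under ABA, and all 3 genes were past 2-fold in both genotypes. In *aph-1* SAUR15 reached 1 FPKM only without ABA. SAUR14 alone went from 82.6 to 8.75 FPKM in WT and from 66.8 to 7.58 FPKM in *aph-1*. SAUR50, SAUR49 and SAUR1 (AT4G34770), which lie close together on chromosome 4, had lower sums of 30.4 and 29.1 FPKM after ABA against 104 and 104 FPKM without it. Within this group SAUR1 was at -3.12 and SAUR50 at -1.81 in WT, while SAUR49 (AT4G34750), a promoter of leaf senescence, was at 20.4 and 19.3 FPKM in control seedlings against 10.6 and 11.3 FPKM under ABA and stayed under 2-fold.

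**Figure D2:**
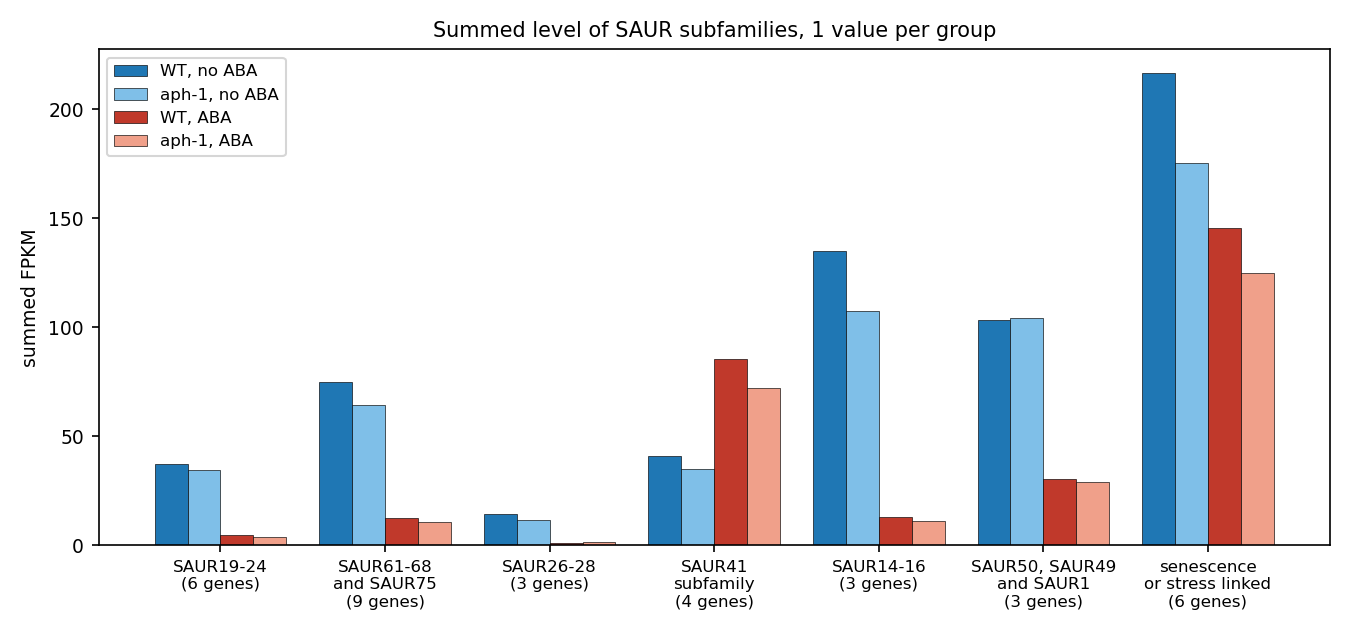
Summed FPKM (vertical axis, from 0) of 7 lists of SAUR genes in the 4 groups, 1 bar per group and no error bars because there is 1 value per group. The bars with ABA are lower than those without it for each list except the SAUR41 subfamily, which summed to 40.8 and 34.9 FPKM in control seedlings against 85.6 and 72.0 FPKM under ABA.

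A minority of the family was higher after ABA, and the 6 genes past 2-fold in WT lay outside the tandem arrays. They are 10% of the members with enough FPKM in WT, beside 11.7% of all genes. In *aph-1* the 5 higher members are 8.62%, beside 12% of all genes. SAUR74 (AT3G12955) was at 3.70 FPKM in both untreated genotypes and at 18.4 and 20.6 FPKM after ABA, with a log2 ratio of 2.28 in WT and 2.45 in *aph-1*. SAUR35 (AT4G12410) was at 2.67 and 1.69 FPKM in control seedlings against 13.3 and 11.2 FPKM under ABA, a log2 ratio of 2.28 in WT. SAUR59 was at 41.4 and 40.7 FPKM in control seedlings against 119 and 95.3 FPKM under ABA, a log2 ratio of 1.53. These 3 genes were picked for their rise in WT, so their higher WT values with ABA are set by that choice. Both treated values were above both untreated values in each. SAUR36 (AT2G45210), known as a promoter of leaf senescence, was at 19.4 and 13.9 FPKM in control seedlings against 40.4 and 31.1 FPKM under ABA, and just passed the limit at 1.05. SAUR33 (AT3G61900) was the only one of the 6 that was not higher in *aph-1*: its values were 0.495 FPKM in untreated WT, 1.40 FPKM in untreated *aph-1*, 1.28 FPKM in treated WT and 0.826 FPKM in treated *aph-1*.

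The SAUR41 subfamily, which is tied to cell expansion and to ABA and salt responses of seedlings, had higher values after ABA in each member with at least 1 FPKM. SAUR72 (AT3G12830) was past 2-fold, at 11.1 and 10.1 FPKM in control seedlings against 40.0 and 33.6 FPKM under ABA, log2 ratios of 1.84 and 1.72. SAUR41 (AT1G16510) was at 8.88 and 7.74 FPKM in control seedlings against 16.0 and 12.9 FPKM under ABA, and its log2 ratio of 0.84 in WT missed the limit. SAUR71 (AT1G56150) was at 20.7 and 17.0 FPKM in control seedlings against 29.5 and 25.4 FPKM under ABA, a log2 ratio of 0.51. The other member, SAUR40 (AT1G79130), had at most 0.168 FPKM in any group.

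The list of SAUR genes linked to senescence or stress did not move as a group. Of its 6 members in the table, SAUR10 and SAUR17 were below 1 FPKM. SAUR36 was higher, SAUR78 and SAUR76 (AT5G20820) were lower, and SAUR32 was at 56.6 and 43.9 FPKM in control seedlings against 48.4 and 47.8 FPKM under ABA. SAUR76 and SAUR78 both bind ethylene receptors and both were past 2-fold, at -3.50 and -1.16 in WT. SAUR76 was at 17.5 and 14.5 FPKM in control seedlings against 1.45 and 2.14 FPKM under ABA. SAUR8, SAUR12, SAUR45, SAUR52 and SAUR77 were, with SAUR32, SAUR41, SAUR49, SAUR51, SAUR66 and SAUR71, the 11 members that differed less than 2-fold in WT.

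**Figure D3:**
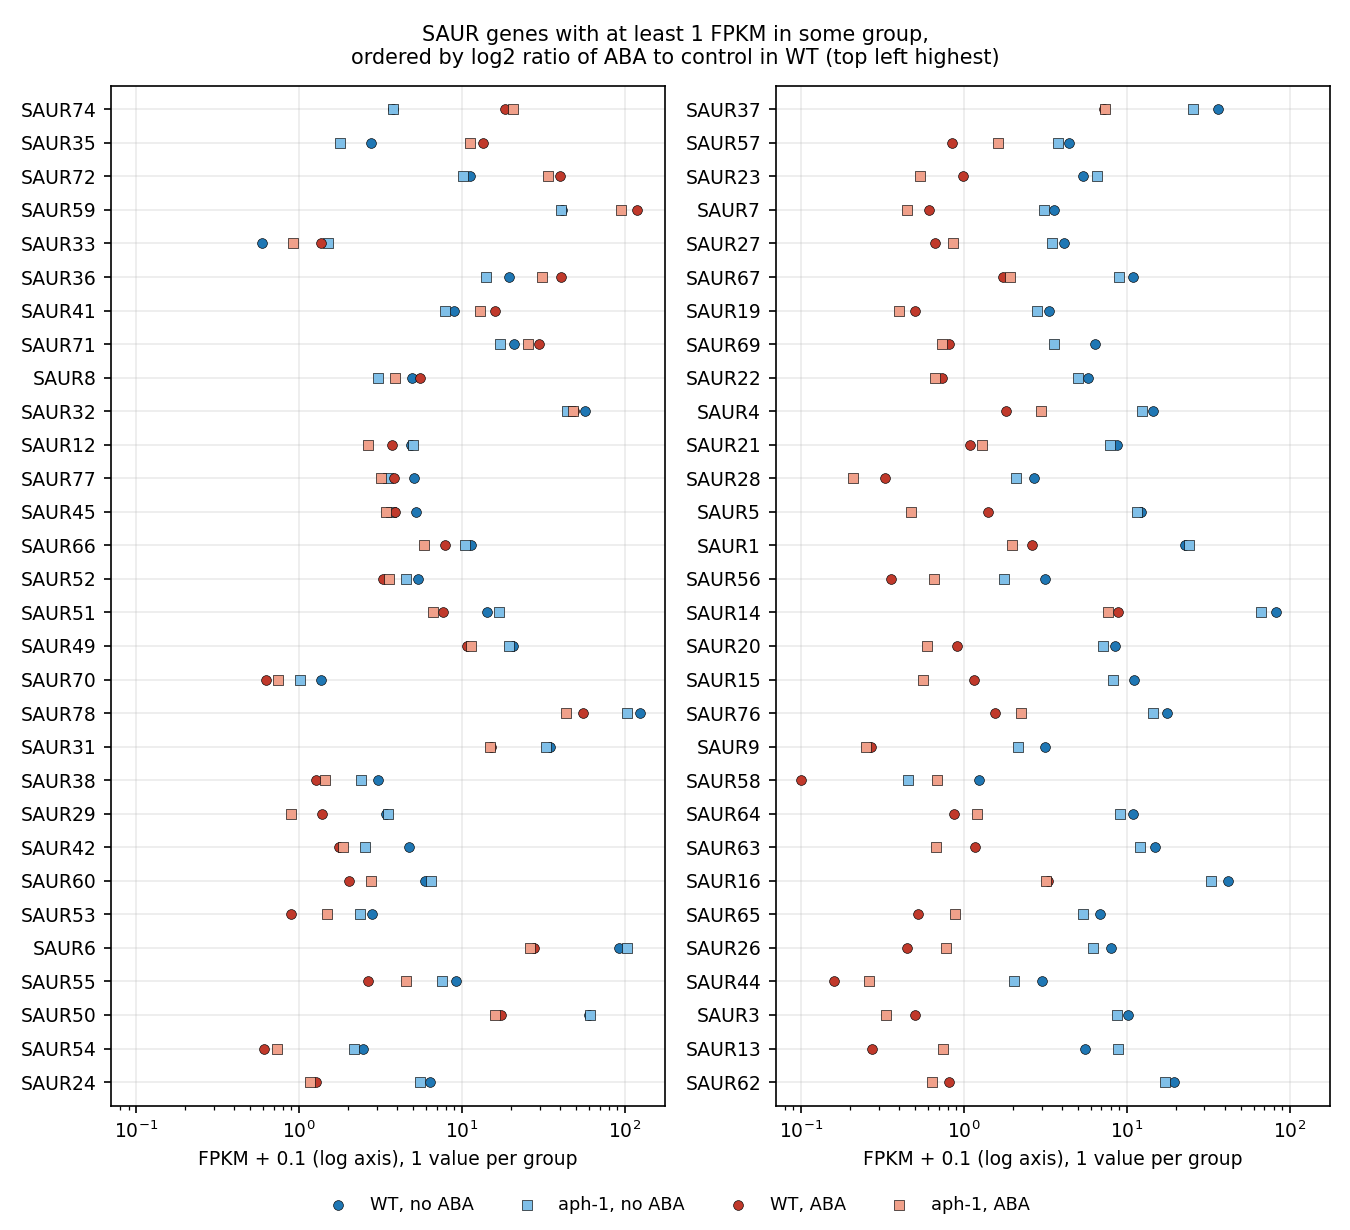
FPKM plus 0.1 on a log axis for the 60 SAUR genes that reached 1 FPKM in some group, 1 point per group, ordered by the log2 ratio of ABA to control in WT, for WT (circles) and *aph-1* (squares) without ABA (blue) and with ABA (red). Most red points lie left of the blue ones, whereas SAUR74, SAUR35, SAUR72 and SAUR59 at the top left have them to the right, and the light and dark points of a colour are mostly close together.

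Members in tandem arrays and members outside them were counted apart. By the RefSeq order of genes, with at most 1 other gene between neighbours, 34 members lay in 12 tandem arrays and 43 did not. The 43 are not all single genes. SAUR19, SAUR24 and SAUR29 fall outside by this rule, though they are close relatives of array members in neighbouring loci. SAUR12 (AT2G21220) and SAUR13 (AT4G38825) fall outside too, though their locus numbers lie close to those of SAUR6 (AT2G21210) and SAUR14 (AT4G38840). In the arrays 26 of the 30 members with enough FPKM were lower after ABA in WT and 0 were higher, with a median log2 ratio of -2.99. Outside them 17 of 30 were lower and 6 higher, with a median of -1.24. In *aph-1* 25 of 29 members in arrays were lower and 0 higher, and 13 of 29 outside were lower and 5 higher. Over all genes with enough FPKM 13% were lower and 11.7% higher in WT, and 10.8% lower and 12% higher in *aph-1*. The filter sets part of these counts, since 15 of the 30 members in arrays but 8 of the 30 outside passed only through untreated WT. Among members with at least 1 FPKM in both WT groups, 11 of 15 in arrays were lower and 0 higher, with a median of -2.98, and 9 of 21 outside were lower and 5 higher, with a median of -0.41. Among those with at least 1 FPKM in both *aph-1* groups, 11 of 15 in arrays were lower and 0 higher, with a median of -2.06. Outside arrays 6 of 21 of these were lower and 5 higher, with a median of -0.14. Of all genes with at least 1 FPKM in both groups, 10.3% were lower and 10.6% higher in WT, and 8.49% and 10.5% in *aph-1*. The difference between members in arrays and outside them was not tested. Neighbours share sequence and may share reads, so they do not count as independent genes. On chromosome 5 all 11 members with enough FPKM were lower in WT, and on chromosome 3 there were 5 lower and 4 higher. The median gene length was 792 bases for the 43 lower members and 954.5 bases for the 6 higher ones, and the median untreated level was 6.80 and 7.39 FPKM.

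In *aph-1* the same direction prevailed. After ABA 38 of 58 members with enough FPKM were lower and 5 were higher, beside 10.8% lower and 12% higher over all 20054 genes. The median log2 ratio was -1.96, beside -0.02 over all genes. The filter again bears on this, because 22 members reached 1 FPKM only without ABA. Among the 36 with at least 1 FPKM in both *aph-1* groups 17 were lower and 5 higher, with a median of -0.88, beside 8.49% lower and 10.5% higher of 18644 genes.

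Set side by side over the 58 members with enough FPKM in both genotypes, 37 were lower in both, 5 higher in both and 10 under 2-fold in both. In 4 members only the WT was past the limit downwards, SAUR38, SAUR42, SAUR53 and SAUR55, and in SAUR51 only *aph-1* was. None was past 2-fold in opposite directions. Whether responses differ between genotypes could not be tested with 1 value per group, so the difference of the log2 ratios, *aph-1* minus WT, is given as a description. It ran from -1.90 to 1.71 with a median of 0.16, beside a median of 0.03 over all 19872 genes, and 35 of the 58 were within 0.5. The median absolute difference was 0.39 over the members and 0.19 over all genes. Shares of all genes were not computed for the counts in this paragraph.

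The widest of these differences fell in thinly covered genes. A difference of at least 1 was found in 9 members, 15.5% of the 58, beside 1.65% of all genes. Among the 32 members with at least 1 FPKM in all 4 groups it was found in 1, SAUR55, beside 0.695% of the 18423 genes of that class, and among the 17 members under 1 FPKM after ABA in both genotypes it was found in 5. SAUR55 (AT5G50760) was at 9.09 FPKM in untreated WT, 7.50 FPKM in untreated *aph-1*, 2.56 FPKM in treated WT and 4.45 FPKM in treated *aph-1*, so the treated mutant lay nearer its untreated level, at -0.74 against -1.79 in WT. SAUR56 (AT1G76190) was at 3.05 and 1.68 FPKM in control seedlings against 0.256 and 0.558 FPKM under ABA. SAUR57 (AT3G53250) was at 4.34 and 3.67 FPKM in control seedlings against 0.753 and 1.52 FPKM under ABA. In these 3 genes the treated mutant held more FPKM than the treated WT. SAUR5 (AT4G34810) and SAUR23 (AT5G18060) went the other way, with SAUR5 at 12.1 and 11.5 FPKM in control seedlings against 1.32 and 0.376 FPKM under ABA. SAUR23 was at 5.28 and 6.47 FPKM in control seedlings against 0.894 and 0.442 FPKM under ABA. The remaining members of the 9 were SAUR33, SAUR44, SAUR26 and SAUR65.

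**Figure D4:**
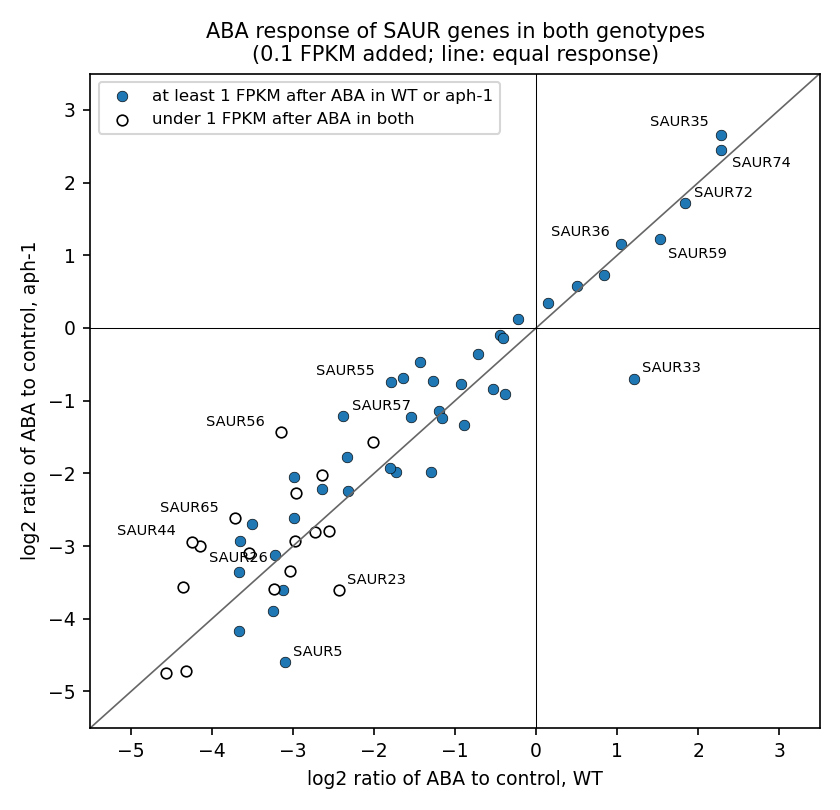
Log2 ratio of ABA to control in *aph-1* (vertical axis) against WT (horizontal axis), with 0.1 FPKM added, for the 58 SAUR genes with enough FPKM in both genotypes, with a line of equal response and open points for genes under 1 FPKM after ABA in both. Points follow the line, 37 of them past 2-fold downwards in both genotypes, and SAUR33 lies apart at 1.21 in WT and -0.70 in *aph-1*.

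Between the untreated genotypes few members were past 2-fold. Of the 60 with enough FPKM 1 was higher in *aph-1*, beside 0.207% of 19788 genes, and 1 was lower, beside 0.844%. The higher member was SAUR33, whose 0.495 and 1.40 FPKM in WT and *aph-1* stand for an estimated 19 and 53 fragments. The lower one was SAUR58 (AT1G43040), at 1.15 and 0.356 FPKM, an estimated 52 and 16 fragments. Each passed the minimum only through the genotype in which it is higher, and among the 57 members with at least 1 FPKM in both untreated groups 0 were past 2-fold in either direction. SAUR58 was listed at 0 in treated WT and at 0.581 FPKM in treated *aph-1*, so no fold is given for it after ABA, though it counts among the 43 lower members in WT.

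At any size of difference, 50 of these 60 members had the lower value in untreated *aph-1*, which is 83.3% beside 56.5% of all genes, and the median log2 ratio was -0.25 beside -0.05. Without a replicate error these small steps cannot be set against the spread between libraries. Of the 12 members with at least 20 FPKM in untreated WT 9 were lower in *aph-1* (median of the 12 on the log2 scale -0.17), among them SAUR78 at 123 against 103 FPKM, SAUR14 at 82.6 against 66.8 FPKM and SAUR37 (AT4G31320) at 36.5 against 25.3 FPKM. The other 3 had the higher value in *aph-1*: SAUR6 at 91.8 against 103 FPKM, SAUR50 at 60.5 against 61.0 FPKM and SAUR1 at 22.7 against 23.8 FPKM. Choosing members by their WT level favours lower values in *aph-1*, and SAUR71 and SAUR49 reached 20 FPKM only in WT. The share of all genes at this level was not computed. The largest falls under the limit were SAUR42 (AT2G28085) at 4.65 against 2.46 FPKM, SAUR69 (AT5G10990) at 6.25 against 3.46 FPKM and SAUR56, with log2 ratios of -0.89, -0.84 and -0.83. SAUR13, SAUR23 and SAUR51 (AT1G75580) were above WT, with log2 ratios of 0.67, 0.29 and 0.24, and SAUR51 was at 14.2 FPKM in WT and 16.7 FPKM in *aph-1*. RAB18 was lower in the untreated mutant too, as given above, and RD29B, another ABA-induced gene, was at 9.19 FPKM in untreated WT and 0.708 FPKM in untreated *aph-1*. The part of this in the SAUR values was not tested.

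After ABA the genotypes again differed in few members. Of 41 with enough FPKM 2 were lower in *aph-1*, beside 0.304% of 19408 genes, and 0 were higher, beside 0.438%. SAUR5 was at 1.32 against 0.376 FPKM, a log2 ratio of -1.57, and SAUR15 at 1.06 against 0.458 FPKM, a log2 ratio of -1.06. Both passed the minimum only through WT, where they are higher, and among the 32 members with at least 1 FPKM in both treated groups 0 were past 2-fold in either direction. In the mutant these levels rest on an estimated 12 and 18 fragments, and in WT on 40 and 41. Next were SAUR63 at -0.80 and SAUR29 (AT3G03820) at -0.64, with SAUR29 at 1.29 against 0.791 FPKM. SAUR57 was highest at 0.93, before SAUR55 at 0.78, SAUR53 (AT1G19840), a promoter of cell expansion, at 0.73 and SAUR4 (AT4G34800) at 0.71. SAUR53 was at 0.797 against 1.38 FPKM and SAUR4 at 1.72 against 2.89 FPKM. The lower value stood in *aph-1* in 26 of the 41, which is 63.4% beside 53% of all genes, with a median of -0.14.

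**Figure D5:**
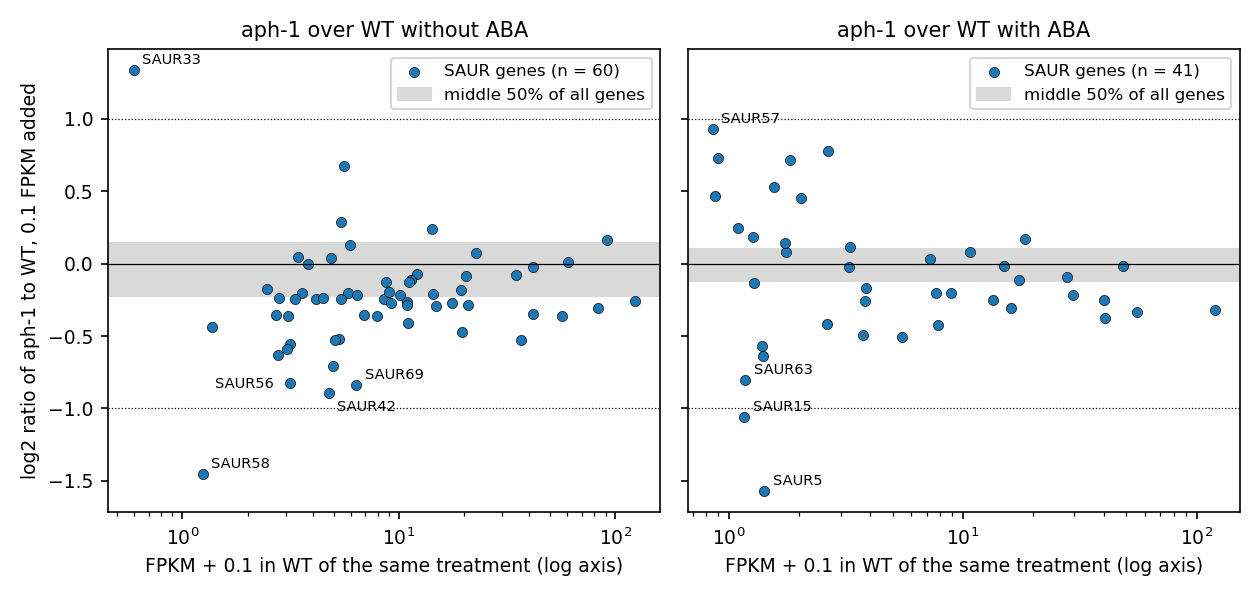
Log2 ratio of *aph-1* to WT with 0.1 FPKM added (vertical axis) against the WT level of the same treatment (horizontal log axis, FPKM plus 0.1), without ABA (left, 60 SAUR genes) and with ABA (right, 41), where the grey band holds the middle 50% of all genes and dotted lines mark 2-fold. Members past 2-fold (SAUR33 and SAUR58 on the left, SAUR15 and SAUR5 on the right) lie at the low end of expression, and most members on the left lie below 0.

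The genes on which SAUR proteins act, and those that act on SAUR genes, were counted the same way for ABA in WT. Over all 20094 genes 11.7% were higher and 13% lower, and in lists this short counts of 0 or 1 cannot be set apart from those shares. Of the 9 clade D phosphatase genes 1 was higher and 1 lower. PP2C.D1 (AT5G02760) was at 44.4 and 51.0 FPKM in control seedlings against 8.56 and 8.84 FPKM under ABA, and AT4G33920 was at 20.3 and 17.1 FPKM in control seedlings against 51.6 and 44.5 FPKM under ABA. Of the 11 plasma membrane H+-ATPase genes 8 had enough FPKM, of which 1, AHA4, was higher and 0 were lower. The abundant pump genes AHA1 and AHA2 were at 177 and 121 FPKM in untreated WT and at 220 and 67.1 FPKM after ABA. None of the 3 measured TMK receptor kinase genes, whose products activate the pumps, and none of the 6 TIR1/AFB auxin receptor genes was past 2-fold. Among 12 genes for factors that bind SAUR promoters or control growth (PIF, BZR, ARF and HY5 genes) PIF3 was higher, at 29.6 and 83.2 FPKM in WT, and 0 were lower. No gene of these 5 lists was past 2-fold between the genotypes with or without ABA. The counts are descriptions of single values, and a difference in share between these lists and the SAUR genes was not tested.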

How the data were processed

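RNA from 12 libraries was analysed from the deposited gene table of 33559 genes. The FPKM values were made by the authors, 1 per gene and group of 3 libraries, and how libraries were combined is not stated. The methods give Trimmomatic, HISAT on TAIR10 and htseq-count, the labels name HTSeq and TAIR10, and the table is labelled as Cuffdiff output. The unit was inferred from that label and the column sums. The 8 columns of the authors' own comparisons (log2 ratios and yes or no calls) were not used. Depth per library is unknown. Fragments were estimated from the lowest decile of nonzero FPKM times length over transposable element genes of 500 to 1000 bases.

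Log2 ratios with 0.1 FPKM added were computed in Python 3.11.15 with pandas 2.3.3 and numpy 2.4.6, with a 2-fold limit and a minimum of 1 FPKM in 1 of 2 groups. The code was tested on simulated data. Without values per library no test was run. Names and gene order came from RefSeq (TAIR10.1), where all 77 members were found, and its coordinates are not printed. AT1G29510 is called SAUR67 and AT1G29490 SAUR68 by its synonyms. Genes were named by rule: the 8 largest rises and falls with ABA in WT, the 4 each way between genotypes, the 6 highest in untreated WT and 7 lists. SAUR37, SAUR38 and others outside it were chosen after their values were seen. The members and lists were chosen with earlier results of these data known. Promoter and protein sequences were not analysed here. Alternatives were other fold limits, minimums and added FPKM, centring, and members outside arrays.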

Additional observations from a re-analysis of the deposited data

How the results depend on the processing

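No call reversed under any alternative run. Replicate error and depth per library limit every value: each group has 1 value, so libraries could not be left out. No paired analysis was possible because the group columns carry no replicate numbers. An alternative on protein identity was not run because no protein table was used. With ABA in WT, 43 lower and 6 higher of 60 members became 36 lower and 3 higher of 60 at 3-fold. At a minimum of 5 FPKM 28 were lower and 5 higher of the 42 members left. The median of -2.33 became -1.58 with 1 FPKM added. The shares of all genes under these alternatives are not given here. In *aph-1* there were 31 lower and 3 higher of 58 at 3-fold, and the median became -1.32 with 1 FPKM added. Without the tandem arrays, an alternative chosen after seeing the data, there were 17 lower members with a median of -1.24 in WT and 13 lower with a median of -0.74 in *aph-1*. Counting only protein-coding genes between neighbours, also chosen after seeing the data, gave 11 arrays with 36 members. Between untreated genotypes the 1 higher and 1 lower member became 0 and 0 at 3-fold, at a minimum of 5 FPKM or with 1 FPKM added, 2 higher and 7 lower at 1.5-fold, and 3 higher with no minimum. After ABA the 2 lower members became 0 at 3-fold, at a minimum of 5 FPKM, with 1 FPKM added or outside arrays. There were 4 higher and 4 lower at 1.5-fold, 3 higher and 4 lower with no minimum, and 1 higher with 0.01 FPKM added. Of 219 single-gene ratios, 54 moved by over 1.5-fold with 1 FPKM added, 3 with 0.01 FPKM added and 0 with centring on the median of all genes.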

Other observations

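SAUR79 (AT2G35290) carries no description in the table and was not taken by the rule. Its level was 2.47 FPKM in untreated WT, 1.46 FPKM in untreated *aph-1*, 4.94 FPKM in treated WT and 3.96 FPKM in treated *aph-1*, so both treated values were above both untreated ones. The locus AT5G01830, an ARM repeat gene that shares the symbol SAUR21 in the annotation, was not taken either and was at 3.83, 4.05, 5.42 and 5.26 FPKM in the same order. SAUR30 was not analysed here.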
